A study of Mus musculus with 16 samples.

Results

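The Cyp4a genes of the mouse encode cytochrome P450 enzymes that hydroxylate the end of a fatty acid chain. The members were chosen by gene symbol, as Cyp4a10, Cyp4a12a, Cyp4a12b, Cyp4a14, Cyp4a31 and Cyp4a32, from probesets annotated to exactly 1 symbol, taking for each symbol the probeset with the highest mean over all 16 arrays. Of these 6 genes, 5 had such a probeset, among 30142 genes measured in this way. Cyp4a10 had none of its own: its probeset is annotated to Cyp4a10 and Cyp4a31 together, and it is described below as a shared probeset, with no test. The family was selected from genes already known to differ between the genotypes in these arrays, so the genotype values of Cyp4a12a, Cyp4a12b and Cyp4a14 describe a known pattern and are not independent support for it.

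RNA came from glomerular extracts of the kidney cortex of 16 female mice, with 1 mouse per array and 2 mice in each of 8 groups. The groups were B6.ERαKO mice (KO), which lack oestrogen receptor alpha, and C57Bl/6 wild type mice (WT), each at 18 hours, 6 days and 2 weeks after an intraperitoneal injection of sheep nephrotoxic serum at 8 ul per g, or untreated. The serum carries antibodies against the glomerular basement membrane and starts nephritis. Neither the knockout allele nor the age of the mice is given in the sources used here, and the replicates are separate mice.

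Microsomal Cyp4a enzymes take electrons from P450 reductase and turn fatty acids into omega-hydroxy acids, which alcohol and aldehyde dehydrogenases convert to dicarboxylic acids for peroxisomal oxidation. With arachidonic acid as substrate, Cyp4a12a in particular makes 20-HETE, a lipid that constricts renal vessels and acts on tubular salt transport. In the mouse kidney the family is expressed in the proximal tubule, Cyp4a10 and Cyp4a14 are classic targets of the fatty acid receptor PPARα, and Cyp4a12a is induced by androgens and is the male form.

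Values are the deposited log2 values. They ran from 2.22 to 19.93 over the whole table, with array medians between 5.57 and 5.9, and the transformation behind them is not given, so differences are stated in deposited log2 units and not as folds of RNA. Near-copies such as Cyp4a12a and Cyp4a12b, or Cyp4a31, Cyp4a32 and Cyp4a10, may share hybridised RNA, and the levels of different probesets are not compared. Both 18-hour replicate 2 arrays stood apart: the array labelled KO and the array labelled WT each carried values typical of the other genotype. The KO 2 weeks replicates also lay apart, with 556 genes more than 2 log2 units from each other, against 6 genes in the KO untreated group. Results are therefore given for all 16 arrays as labelled, which is the planned fit, and for 14 arrays without both 18-hour replicate 2 arrays. Where stated, 13 arrays also leave out KO 2 weeks replicate 1, and 12 arrays leave out every 18-hour array. The arrays left out were chosen from values that include the genotype pattern. Leaving out both 18-hour replicate 2 arrays therefore raises the genotype contrast by construction, while leaving out KO 2 weeks replicate 1 as well lowered it again for Cyp4a12a, Cyp4a12b and Cyp4a14. Esr1, the gene named in the knockout, read 7.40 and 7.56 in KO untreated mice and 7.04 and 7.0 in WT untreated mice, so it was not lower in KO. The probes' position relative to the deleted part is not known here, so a loss of Esr1 signal cannot be used to check the labels. Over the 14 arrays Esr1 read 7.29 to 7.64 in KO and 6.35 to 7.04 in WT. In the 18-hour replicate 2 arrays it read 7.11 in KO and 7.53 in WT. Whether those labels are exchanged was not tested.

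Of the 6 members only Cyp4a32 matched an entry in the RefSeq promoter table (GRCm38.p6), so no other member's promoter could be shown. The windows of that table run from 250 bases before to 50 bases after the start. Cyp4a32 was also the member whose change after serum passed the test with all 16 arrays. The promoter of Cyp4b1 is shown because this neighbouring omega-hydroxylase followed the Cyp4a12 pattern. Capitals mark TGTTCT, which is AGAACA, the half-site of androgen and glucocorticoid receptors, read on the opposite strand.
Cyp4a32, chr4:115600688-115600987, + strand: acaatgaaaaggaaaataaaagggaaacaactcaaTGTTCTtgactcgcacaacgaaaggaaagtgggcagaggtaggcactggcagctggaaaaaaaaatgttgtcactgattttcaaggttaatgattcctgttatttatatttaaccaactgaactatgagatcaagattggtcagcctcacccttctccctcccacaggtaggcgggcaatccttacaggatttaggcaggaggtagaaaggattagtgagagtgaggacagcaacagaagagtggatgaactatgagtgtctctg
Cyp4b1, chr4:115647672-115647971, - strand: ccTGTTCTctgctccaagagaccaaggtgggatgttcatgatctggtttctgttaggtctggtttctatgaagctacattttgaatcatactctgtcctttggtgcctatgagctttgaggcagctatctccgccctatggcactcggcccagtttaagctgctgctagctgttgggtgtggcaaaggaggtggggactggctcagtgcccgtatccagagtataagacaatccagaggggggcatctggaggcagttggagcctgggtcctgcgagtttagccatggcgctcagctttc
Relative to the start site the AGAACA match began at base -215 in Cyp4a32 and at base -248 in Cyp4b1. Searched on both strands, AGAACA was found in 19% of 32851 promoters of this length. The nuclear receptor half-site AGGTCA was in neither window and in 16.3% of all promoters. The direct repeat AGGTCANAGGTCA, the form bound by PPARα with its RXR partner, was in neither window and in 0.0396% of all promoters. The oestrogen receptor form AGGTCANNNTGACCT (0.0213% of all promoters) and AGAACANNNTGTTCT (0.00913%) were also in neither. The longer motifs contain the half-sites, and these matches describe letters only.

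Cyp4a12a was high in KO kidneys and low in WT kidneys, apart from the 18-hour replicate 2 arrays and KO 2 weeks replicate 2. In untreated mice Cyp4a12a read 15.85 and 12.89 in KO and 8.37 and 7.21 in WT. At 18 hours the KO arrays read 12.61 and 7.02, against 7.94 and 14.60 for the WT arrays, so that within each genotype 1 array was high and 1 low. At 6 days Cyp4a12a read 16.16 and 13.85 in KO and 8.00 and 8.11 in WT. At 2 weeks it read 16.36 and 10.30 in KO and 9.37 and 8.61 in WT. The genotypes did not overlap in untreated mice, at 6 days or at 2 weeks. The KO replicates lay far apart, however, and KO 2 weeks replicate 2 came close to the nearer WT array. With 2 arrays per group, lack of overlap carries little weight. The share of all genes showing it between groups was not counted, here or for the genes below.

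Cyp4a12b, its near-copy in the same cluster, gave almost the same profile. It read 15.40 and 12.78 in KO untreated mice and 8.34 and 8.17 in WT untreated mice. At 18 hours it read 12.50 and 7.89 in KO and 8.40 and 14.25 in WT. At 6 days and 2 weeks KO arrays read 15.69, 13.51, 15.83 and 10.43, against 8.45, 8.47, 9.95 and 9.24 in WT. After each gene was centred on its own mean, Cyp4a12a and Cyp4a12b differed by 0.426 units on average over the 16 arrays, so these probesets may report partly the same RNA.

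Cyp4a14, which in other mouse tissues responds strongly to PPARα ligands and fasting, ran the other way. It read 11.01 and 11.47 in KO untreated mice and 16.65 and 16.72 in WT untreated mice. At 18 hours it read 13.09 and 17.21 in KO and 18.21 and 12.44 in WT. At 6 days it read 7.80 and 10.14 in KO and 16.94 and 16.60 in WT, and at 2 weeks 8.31 and 14.21 in KO and 14.38 and 16.27 in WT. In untreated mice and at 6 days the genotypes were more than 5 units apart, while at 2 weeks the higher KO array lay just under the lower WT array. Turned in sign, the centred values of Cyp4a14 followed those of Cyp4a12a to 0.774 units and those of Cyp4a12b to 0.750 units on average, and the arrays with the highest Cyp4a12a were among those with the lowest Cyp4a14.

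**Figure D1:**
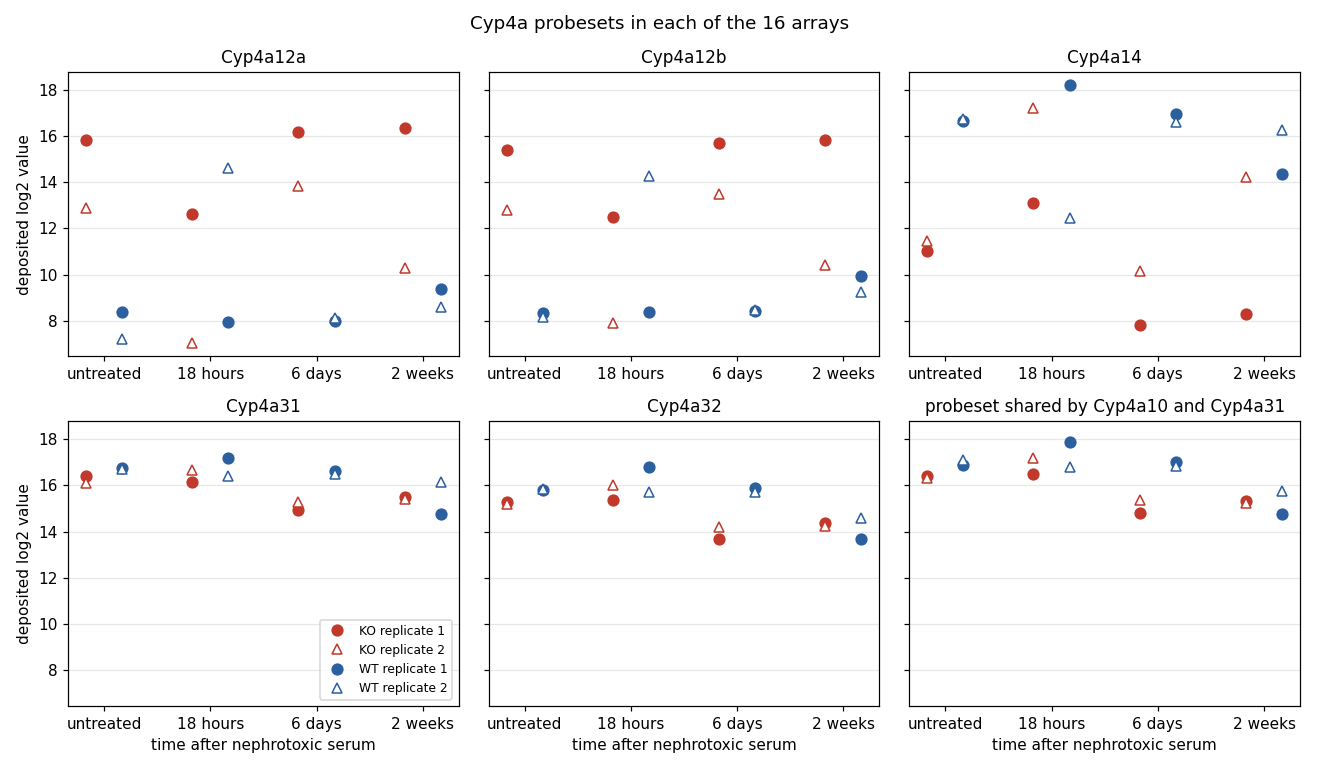
Deposited log2 value of each Cyp4a probeset (vertical axis) by time after serum (horizontal axis), with KO in red left of WT in blue, and replicate 1 as filled circles and replicate 2 as open triangles. Cyp4a12a and Cyp4a12b are high in KO and Cyp4a14 is high in WT except for the 18-hour replicate 2 arrays and for KO 2 weeks replicate 2, which lies near the WT arrays (Cyp4a12a 10.30, Cyp4a14 14.21), while Cyp4a31, Cyp4a32 and the shared probeset span about 2.41 to 3.11 units.

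Cyp4a31 and Cyp4a32 varied over a much narrower range. Cyp4a31 read 16.41 and 16.10 in KO untreated mice and 16.74 and 16.72 in WT untreated mice. At 18 hours it read 16.17 and 16.66 in KO and 17.17 and 16.42 in WT. At 6 days it read 14.95 and 15.28 in KO and 16.62 and 16.50 in WT, and at 2 weeks 15.49 and 15.40 in KO and 14.76 and 16.14 in WT. KO was below WT without overlap in untreated mice and at 6 days, and the KO values at 2 weeks lay between the WT replicates.

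Cyp4a32 read 15.30 and 15.22 in KO untreated mice and 15.81 and 15.83 in WT untreated mice. At 18 hours it read 15.37 and 16.02 in KO and 16.78 and 15.71 in WT. At 6 days it read 13.68 and 14.21 in KO and 15.87 and 15.73 in WT, and at 2 weeks 14.36 and 14.24 in KO and 13.67 and 14.60 in WT. In KO both arrays at 6 days were already as low as WT was at 2 weeks.

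The probeset shared by Cyp4a10 and Cyp4a31 read 16.40 and 16.30 in KO untreated mice and 16.90 and 17.09 in WT untreated mice. It read 14.83 and 15.37 in KO at 6 days, against 17.03 and 16.85 in WT, and 15.31 and 15.25 in KO at 2 weeks, against 14.75 and 15.75 in WT. Its centred values differed from those of Cyp4a32 by 0.0495 units on average, closer than from those of Cyp4a31 (0.244), although Cyp4a31 is in its annotation and Cyp4a32 is not. Values of Cyp4a10, Cyp4a31 and Cyp4a32 can therefore not be told apart with confidence.

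The range over the 16 arrays was 9.34 units for Cyp4a12a, 7.94 for Cyp4a12b and 10.4 for Cyp4a14, against a median range of 0.782 over all genes. Cyp4a31 had a range of 2.41 units and Cyp4a32 of 3.11 units. Each of the 5 genes had a wider range than at least 96.1% of all genes.

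**Figure D2:**
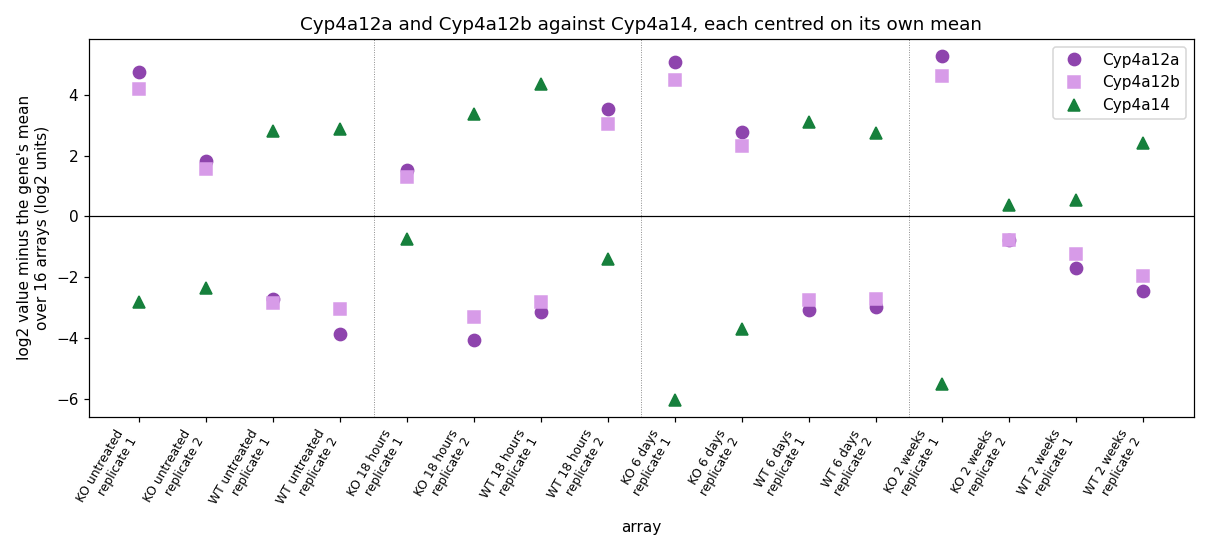
Centred log2 value (vertical axis, each gene minus its mean over 16 arrays) of Cyp4a12a (dark purple circles), Cyp4a12b (light purple squares) and Cyp4a14 (green triangles) in each array (horizontal axis, grouped by time with KO left of WT). Cyp4a12a and Cyp4a12b lie together in every array, differing by 0.426 units on average, and Cyp4a14 lies on the opposite side of 0 in all 16 arrays.

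By group mean (± SD, n = 2), Cyp4a12a ran from KO 6 days (15 ± 1.63) through KO untreated (14.37 ± 2.09), KO 2 weeks (13.33 ± 4.29), WT 18 hours (11.27 ± 4.71), KO 18 hours (9.82 ± 3.95), WT 2 weeks (8.99 ± 0.54) and WT 6 days (8.05 ± 0.08) to WT untreated (7.79 ± 0.82). Of neighbours in that order, only WT 2 weeks and WT 6 days had replicates that did not overlap. Cyp4a12b kept the same order of group means. For Cyp4a14 the order was WT 6 days (16.77 ± 0.24), WT untreated (16.69 ± 0.05), WT 2 weeks (15.32 ± 1.34) and WT 18 hours (15.32 ± 4.08) at the same level, KO 18 hours (15.15 ± 2.91), KO 2 weeks (11.26 ± 4.17), KO untreated (11.24 ± 0.32) and KO 6 days (8.97 ± 1.65). WT untreated lay above WT 2 weeks, and KO untreated above KO 6 days, without overlap of the replicates, while the other neighbours overlapped.

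For Cyp4a32 the order was WT 18 hours (16.24 ± 0.76), WT untreated (15.82 ± 0.02), WT 6 days (15.80 ± 0.10), KO 18 hours (15.70 ± 0.46), KO untreated (15.26 ± 0.06), KO 2 weeks (14.30 ± 0.09), WT 2 weeks (14.13 ± 0.65) and KO 6 days (13.95 ± 0.38). The replicates of KO 18 hours and KO untreated did not overlap, nor did those of KO untreated and KO 2 weeks, while the other neighbours overlapped. Cyp4a31 ran from WT 18 hours (16.79 ± 0.53) to KO 6 days (15.11 ± 0.23), with KO 2 weeks and WT 2 weeks at the same mean of 15.45.

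The genotype comparison asks how loss of the receptor bears on these genes over all times. With all 16 arrays none of the 5 Cyp4a genes passed (limma, Benjamini-Hochberg adjusted p under 0.05 over all genes), as none of the 30142 genes did (0%), although all 5 members and 3514 genes had an unadjusted p under 0.05. The KO minus WT difference, averaged over the 4 times, was 4.10 ± 1.21 (SE) for Cyp4a12a and 3.60 ± 1.05 for Cyp4a12b (adjusted p = 0.272 each in limma). It was -4.37 ± 1.04 for Cyp4a14 (limma adjusted p = 0.25), -0.70 ± 0.20 for Cyp4a32 (limma adjusted p = 0.272) and -0.58 ± 0.20 for Cyp4a31 (limma adjusted p = 0.326). Leaving out KO 2 weeks replicate 2 alone gave calls for Cyp4a12a (4.86 ± 1.11, limma adjusted p = 0.0324), Cyp4a12b (4.27 ± 0.96, limma adjusted p = 0.0308) and Cyp4a14 (-5.11 ± 0.90, limma adjusted p = 0.0183), where 7.29% of all genes passed. Leaving out KO 2 weeks replicate 1 instead gave 3.35 ± 1.12 for Cyp4a12a (limma adjusted p = 0.399), 2.92 ± 0.96 for Cyp4a12b (limma adjusted p = 0.399) and -3.63 ± 0.90 for Cyp4a14 (limma adjusted p = 0.362), and 0% of all genes passed.

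With 14 arrays, 2 Cyp4a genes were higher in KO, where 0.72% of all genes were called higher, and 2 were lower, where 1% of all genes were called lower. Over these arrays Cyp4a12a ranged from 10.30 to 16.36 in KO (median 13.85, n = 7) and from 7.21 to 9.37 in WT (median 8.11, n = 7), without overlap. The difference was 5.63 ± 0.96 for Cyp4a12a, 4.90 ± 0.85 for Cyp4a12b and -5.61 ± 0.88 for Cyp4a14. Cyp4a14 ranged from 7.80 to 14.21 in KO (median 11.01, n = 7) and from 14.38 to 18.21 in WT (median 16.65, n = 7). These ranges did not overlap either. The arrays left out read the other way: Cyp4a12a 7.02 in KO and 14.60 in WT, Cyp4a14 17.21 in KO and 12.44 in WT. The lack of overlap on 14 arrays therefore rests on leaving them out and is not an independent result. The share of all genes without overlap was not counted.

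Cyp4a32 was lower in KO by a much smaller amount on 14 arrays, with a difference of -0.92 ± 0.18 (limma adjusted p = 0.0449) and overlapping values of 13.68 to 15.37 in KO and 13.67 to 16.78 in WT. Cyp4a31 differed by -0.73 ± 0.23 and did not pass (limma adjusted p = 0.177). With 13 arrays the same 4 genes passed, against 2.61% of all genes. With 12 arrays Cyp4a12a (5.96 ± 0.99), Cyp4a12b (5.17 ± 0.87) and Cyp4a14 (-5.77 ± 0.91) passed, against 1.49% of all genes, and Cyp4a32 did not (-0.75 ± 0.19, limma adjusted p = 0.0993).

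**Figure D3:**
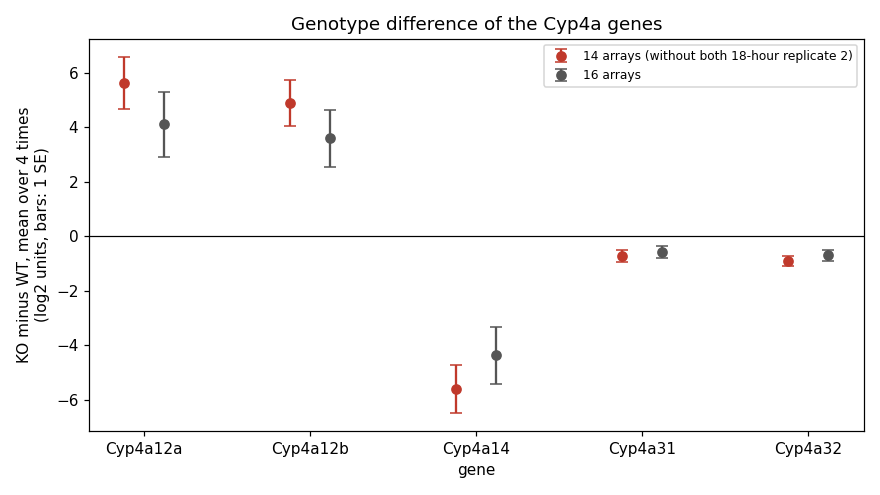
KO minus WT difference averaged over the 4 times (vertical axis, deposited log2 units) for each Cyp4a gene (horizontal axis), with 14 arrays in red and all 16 arrays in grey, and bars of 1 standard error. Cyp4a12a and Cyp4a12b lie between 3.60 and 5.63, Cyp4a14 lies at -4.37 and -5.61, and Cyp4a31 and Cyp4a32 lie between -0.92 and -0.58.

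At single times no Cyp4a gene passed in KO against WT with 16 arrays. In untreated mice the difference was 6.58 ± 2.41 for Cyp4a12a, 5.84 ± 2.10 for Cyp4a12b and -5.45 ± 2.08 for Cyp4a14 (limma adjusted p = 0.918 each), and none of all genes passed (0%), with 3 members and 1564 genes at an unadjusted p under 0.05. In the same mice Cyp4a31 differed by -0.48 ± 0.41 and Cyp4a32 by -0.56 ± 0.39. At 6 days the differences were 6.95 ± 2.41 for Cyp4a12a, 6.14 ± 2.10 for Cyp4a12b, -7.80 ± 2.08 for Cyp4a14, -1.45 ± 0.41 for Cyp4a31 and -1.85 ± 0.39 for Cyp4a32. At that time all 5 members had an unadjusted p under 0.05, against 1457 of all genes, and 0.00664% of all genes passed.

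At 2 weeks Cyp4a12a differed by 4.34 ± 2.41, Cyp4a12b by 3.53 ± 2.10 and Cyp4a14 by -4.06 ± 2.08, while Cyp4a32 differed by 0.16 ± 0.39 and Cyp4a31 by less than 0.01 in size. None of these passed, with 0.182% of all genes called. The 2-week values turned on which KO replicate was used. Without KO 2 weeks replicate 2, Cyp4a14 differed by -7.02 ± 2.09 and passed (limma adjusted p = 0.0424), with 17.7% of all genes called. Without KO 2 weeks replicate 1, it differed by -1.11 ± 2.09 (limma adjusted p = 0.86), Cyp4a12a by 1.30 ± 2.58 and Cyp4a12b by 0.83 ± 2.22, with 0% of all genes called. The 13 arrays gave the same differences, and no member passed there at 2 weeks. At 18 hours Cyp4a12a differed by -1.45 ± 2.41 and Cyp4a14 by -0.18 ± 2.08 with the arrays as labelled, and none of all genes passed (0%), with 0 members and 707 genes at an unadjusted p under 0.05.

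With 14 arrays, where 18 hours has 1 array per genotype, the 18-hour difference was 4.67 ± 2.42 for Cyp4a12a, 4.11 ± 2.14 for Cyp4a12b and -5.12 ± 2.22 for Cyp4a14, opposite in sign to the 16-array values for the Cyp4a12 genes. No member passed at a single time on 14 arrays, where 0.169% of all genes passed in untreated mice, 0.0398% at 18 hours, 0.236% at 6 days and 0.0365% at 2 weeks. With 13 arrays, Cyp4a12a, Cyp4a12b and Cyp4a14 passed in untreated mice (0.63% of all genes), and these and Cyp4a32 passed at 6 days (0.737% of all genes).

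The time course asks how these genes change after serum within a genotype, and every contrast of a genotype shares its untreated arrays. Cyp4a32 fell in WT mice at 2 weeks: it read 13.67 and 14.60, against 15.81 and 15.83 in untreated WT mice, without overlap. The difference was -1.69 ± 0.39 (limma adjusted p = 0.0315), and 3.23% of all genes were called lower. With 14 arrays the difference was the same and passed (limma adjusted p = 0.0392), with 1.24% of all genes called lower. The call was lost without WT untreated replicate 1 (adjusted p = 0.138) or replicate 2 (0.155), without WT 2 weeks replicate 1 (0.062) or replicate 2 (0.0559), and without KO untreated replicate 1 (0.0521) or replicate 2 (0.0522), all in limma. It was also lost with quantile normalization, with array weights and in a fit of only the groups compared.

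Cyp4a31 differed by -1.28 ± 0.41 in WT at 2 weeks and did not pass (limma adjusted p = 0.0742), and the shared probeset of Cyp4a10 and Cyp4a31 differed by -1.74 in group means. Cyp4a31 passed without WT 2 weeks replicate 2 (-1.97 ± 0.34, limma adjusted p = 0.0387), where 0.226% of all genes were called lower, and with each array centred on its median (-1.49 ± 0.39, limma adjusted p = 0.0361), where 9.05% were called lower. Cyp4a12a (1.20 ± 2.41), Cyp4a12b (1.35 ± 2.10) and Cyp4a14 (-1.36 ± 2.08) did not pass in WT at 2 weeks. The median of all genes was itself shifted by 0.13 in this contrast. Relative to that shift, with each array centred on its median, Cyp4a32 differed by -1.90 (limma adjusted p = 0.0179).

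Proximal tubule markers moved at the same time. The mean of all 12 listed markers was 13.28 and 14.33 in WT mice at 2 weeks, against 15.63 and 16.19 in untreated WT mice. Of the 12 markers 5 fell with 16 arrays and 0 with 14, with a median difference of -2.15. The share of all genes called lower in this contrast was 3.23% with 16 arrays and 1.24% with 14. In KO the mean was 15.68 and 13.99 at 2 weeks and 15.84 and 15.12 at 6 days, against 15.94 and 16.11 in untreated mice. Tubule injury markers (5 of 5 measured) had means of 9.15 and 8.79 in WT at 2 weeks, against 5.62 and 5.71 in untreated WT mice, and 7.35 and 9.08 in KO at 6 days, against 6.21 and 5.95 in untreated KO mice. Macrophage markers (8 of 8 measured) had means of 7.23 and 7.16 in WT at 2 weeks, against 6.44 and 6.33 in untreated WT mice. In KO at 6 days their means were 6.53 and 6.55, against 6.44 and 6.33 in untreated KO mice. KO 2 weeks replicates 1 and 2 had injury means of 5.81 and 8.82 and macrophage means of 6.25 and 6.59. Cyp4a32 read 14.36 and 14.24 in these 2 arrays. In WT at 2 weeks 4 of the 8 macrophage markers rose with 16 and with 14 arrays. Of the 5 injury markers 2 rose with 16 arrays and 0 with 14. In that contrast 1450 of all 30142 genes were called higher with 16 arrays and 484 with 14. The part of these 3 lists in the change of Cyp4a32 was not tested, and in these bulk extracts fewer tubule cells and less RNA per cell cannot be told apart. At 6 days the KO arrays had proximal tubule marker means of 15.84 and 15.12 and Cyp4a32 values of 13.68 and 14.21. The labelled tissue is glomerular, and the podocyte list (7 of 10 measured) had means of 9.19 to 10.94 in KO and 9.38 to 11.31 in WT. Hepatocyte markers (7 of 8 measured) had means of 7.08 to 8.53 over all arrays.

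**Figure D4:**
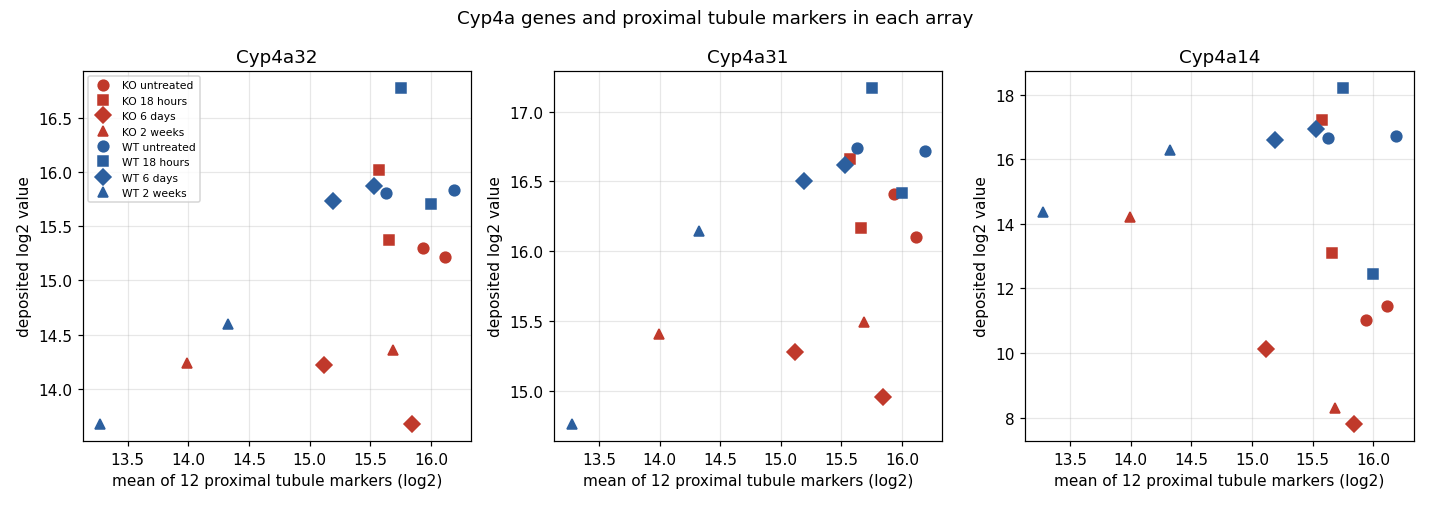
Deposited log2 value of Cyp4a32, Cyp4a31 and Cyp4a14 (vertical axes, each panel with its own scale) against the mean log2 value of 12 proximal tubule markers (horizontal axes) in each array, with KO in red and WT in blue and a symbol for each time. The WT 2 weeks arrays lie lowest in the markers among WT arrays (13.28 and 14.33) and low in Cyp4a32. The KO 6 days arrays have marker means of 15.84 and 15.12, with Cyp4a32 at 13.68 and 14.21.

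In KO mice no member passed at any time after serum. Cyp4a32 differed by -1.31 ± 0.39 at 6 days (limma adjusted p = 0.373) and -0.96 ± 0.39 at 2 weeks (limma adjusted p = 0.561). Cyp4a31 differed by -1.14 ± 0.41 at 6 days and -0.80 ± 0.41 at 2 weeks, and the shared probeset of Cyp4a10 and Cyp4a31 by -1.25 and -1.07 in group means. Over all genes 0.0133% passed in KO at 6 days and 0.109% at 2 weeks. Cyp4a14 differed by -2.27 ± 2.08 in KO at 6 days and by 0.02 at 2 weeks, where its replicates read 8.31 and 14.21.

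At 18 hours no member and none of all genes passed in WT (0%, 0 members and 1186 genes at an unadjusted p under 0.05) or in KO (0%, 0 members and 1216 genes), nor in WT at 6 days (0%, 0 members and 2106 genes). At 6 days in WT all 5 members were within 0.26 units of the untreated mean. The difference between the genotypes' responses did not pass for any member at 18 hours (0% of all genes, 2 members and 1108 genes at an unadjusted p under 0.05), 6 days (0%, 1 member and 395 genes) or 2 weeks (0%, 0 members and 2244 genes). For Cyp4a32 that difference of responses, KO minus WT, was -1.29 ± 0.56 at 6 days and 0.72 at 2 weeks, so a different time course in KO was not shown.

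The genes closest in profile to Cyp4a12a, by mean absolute difference of centred values over the 16 arrays, were Slco1a1 (0.532), Pzp (0.731), Acsm3 (0.750), Cyp7b1 (0.890) and Ugt2b5 (0.936). Slco1a1 encodes an organic anion transporter, Pzp a protease inhibitor, Acsm3 a medium-chain acyl-CoA synthetase, Cyp7b1 an oxysterol hydroxylase and Ugt2b5 a glucuronosyltransferase. Slco1a1 read 14.89 and 13.12 in KO untreated mice and 7.97 and 5.79 in WT untreated mice. Its value in KO 2 weeks replicate 2 was 9.22, against 15.29 in replicate 1, the same order as for Cyp4a12a. For Cyp4a14 the closest genes were Slc7a12 (0.993), Abcc3 (1.34), Scd1 (1.69), Cbr1 (1.71) and Kynu (1.71). Slc7a12 encodes an amino acid transporter, Abcc3 an efflux pump, Scd1 a fatty acid desaturase, Cbr1 a carbonyl reductase and Kynu kynureninase. The rule for close genes could not be applied to Cyp4a10, which has no probeset of its own.

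**Figure D5:**
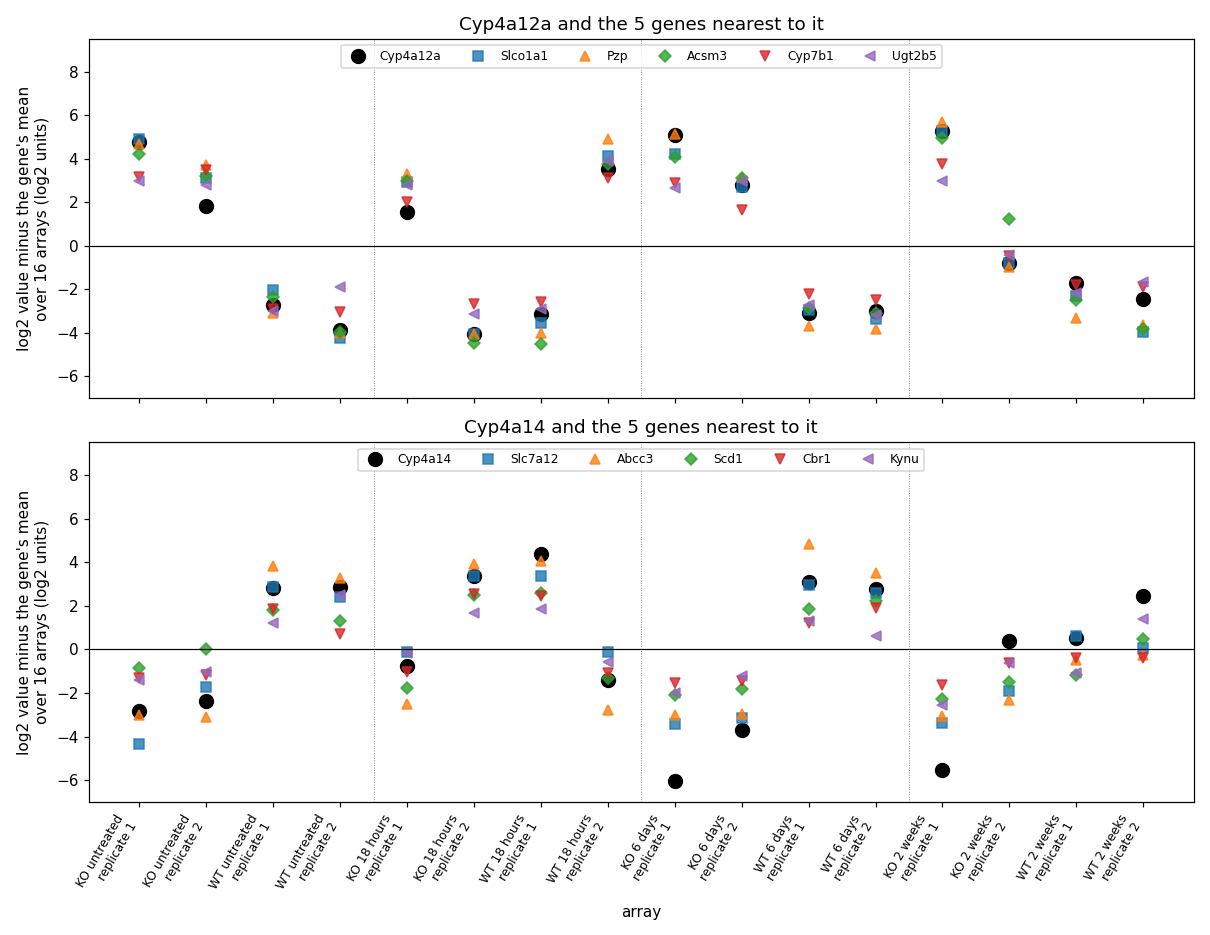
Centred log2 value (vertical axes, each gene minus its mean over 16 arrays) of Cyp4a12a with its 5 closest genes (upper panel) and Cyp4a14 with its 5 closest genes (lower panel) in each array (horizontal axis, grouped by time with KO left of WT). Slco1a1 lies 0.532 units from Cyp4a12a on average, and Slc7a12 lies 0.993 units from Cyp4a14.

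On the chromosome the RefSeq annotation (GRCm38.p6) places 8 Cyp4a genes in the order Cyp4a29, Cyp4a12a, Cyp4a12b, Cyp4a30b, Cyp4a14, Cyp4a10, Cyp4a31 and Cyp4a32, so Cyp4a12b and Cyp4a14, which ran in opposite directions, are separated by a single annotated member of the family. Of the 3 nearest genes on each side, Cyp4b1, which follows Cyp4a32, read 19.34 and 18.99 in KO untreated mice and 14.81 and 13.23 in WT untreated mice. Its KO minus WT difference over 14 arrays was 4.59 ± 0.43 (limma adjusted p = 0.00126), and over 16 arrays 3.39 ± 0.80 (limma adjusted p = 0.25). The other 5 neighbours, Tal1, Pdzk1ip1, Cyp4x1, Efcab14 and Tex38, differed by -0.24 to -0.01 on 14 arrays and none passed.

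Genes that work with or control the Cyp4a enzymes were described from lists selected with earlier results of these data known, and no list gene passed for the genotype average with 16 arrays. The following values are over 14 arrays, where the median difference of all genes was -0.001. On these arrays 0.72% of all genes were called higher in KO and 1% lower. Among 11 of 14 other Cyp4 genes measured, 1 was higher (Cyp4b1) and 1 lower (Cyp4f14, -0.78 ± 0.14, limma adjusted p = 0.0348), with a list median of -0.05. None of 4 measured P450 electron donors passed, and Cyb5b, which carries electrons to some P450 enzymes, differed by 0.72 ± 0.27 (limma adjusted p = 0.273). Of 13 measured receptors and regulators Esr1 alone was higher (0.70 ± 0.09), and Ppara, the gene for PPARα, differed by 0.53 ± 0.22 and did not pass (limma adjusted p = 0.318).

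Of 26 measured PPARα targets outside Cyp4a, 3 were higher (0.72% of all genes) and 3 lower (1%) in KO on 14 arrays. The list median was -0.02. The acyl-CoA thioesterase gene Acot3 was lower (-2.17 ± 0.19), reading 8.12 and 8.17 in KO untreated mice and 11.25 and 11.92 in WT untreated mice. Fabp1, for a fatty acid binding protein, was lower (-1.64 ± 0.22), and Angptl4, for a lipoprotein lipase inhibitor, was higher (1.15 ± 0.16). In WT mice at 2 weeks 12 of the 26 fell with 16 arrays, where 3.23% of all genes were called lower, with a list median of -1.24. Of the measured receptors and regulators, Ghr (-2.32 ± 0.39, limma adjusted p = 0.0139), Hnf4a (-1.33 ± 0.27, limma adjusted p = 0.0222) and Ppara (-1.52 ± 0.40, limma adjusted p = 0.044) also fell with 16 arrays. The others of that list did not pass. With 14 arrays 9 of the 26 fell in that contrast, against 1.24% of all genes. The proximal tubule markers had a lower list median than the PPARα targets in that contrast, as given above. The part of tubule RNA in these falls was not tested.

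In the steps after hydroxylation, 2 of 10 measured genes were higher in KO on 14 arrays (0.72% of all genes), with a list median of 0.35. These were Adh1, an alcohol dehydrogenase (2.85 ± 0.40), and Aldh3a2, a fatty aldehyde dehydrogenase (1.60 ± 0.32). Aldh3a2 is also in the list of PPARα targets above. Adh1 read 16.32 and 15.77 in KO untreated mice and 13.52 and 13.86 in WT untreated mice. Among 16 measured genes of arachidonic acid release and its other oxidation, 2 were higher, Cyp2j13 (7.37 ± 0.40) and the soluble epoxide hydrolase gene Ephx2 (1.94 ± 0.34). That list had a median of 0.08, and Ptgs2, the inducible cyclooxygenase gene, differed by -0.05. Cyp2j13 is also in the male-biased list below.

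Lists of kidney genes known to differ between the sexes ran with the Cyp4a genes, but they were selected with the genotype pattern of these arrays known and are not independent evidence of its direction. Of 12 male-biased genes 10 were higher in KO on 14 arrays (0.72% of all genes), with a list median of 5.27. The amino acid transporter gene Slc7a13 led (9.31 ± 0.92). It read 16.98 and 16.64 in KO untreated mice and 8.00 and 5.54 in WT untreated mice. All 3 measured female-biased genes were lower (1% of all genes), Abcc3 (-5.68 ± 0.23), Slc7a12 (-4.55 ± 0.42) and the steroid dehydrogenase gene Akr1c18 (-3.83 ± 0.40). These lists repeat genes named above. Slco1a1, Acsm3 and Cyp7b1, close in profile to Cyp4a12a, and Cyp2j13 are in the male-biased list. Abcc3 and Slc7a12 are also among the genes closest to Cyp4a14, so these are not separate observations. Proximal tubule markers did not differ with genotype by this test, with 0 of 12 called and a list median of 0.17 on 14 arrays.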

How the data were processed

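The 16 arrays were hybridised with biotin-labelled cDNA from 10 ng of RNA made with the Affymetrix WT Pico kit, per the labels' protocols. The authors deposited log2 values for 72688 probesets, made with Affymetrix Expression Console and Transcriptome Analysis Console per the submitters' processing notes. Neither their versions nor the summarisation nor the annotation build is given in the sources used here. Probesets with exactly 1 symbol (30604) were kept, those with several (2146) or none (39938) were left out, 827 symbols were updated through the Entrez identifier, and for 355 genes with several probesets the one with the highest mean was used. The array count limits the precision.

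Each gene was fitted with a mean per group over all 16 arrays in limma 3.58.1 (R 4.3.3), with moderated variances (intensity trend, 8 residual degrees of freedom before moderation), with Benjamini-Hochberg adjustment of the p-values within each contrast over 30142 genes. A call is an adjusted p under 0.05. The procedure was tested on simulated data. The members, the lists and the arrays left out were chosen with earlier results of these data known. Named genes were the members, Esr1, the 5 genes closest in profile to Cyp4a12a and Cyp4a14, up to 4 per list by size, and 3 neighbours on each side. Ptgs2 and Ghr were added after their values were seen. Alternatives were other normalizations, probeset and dim-gene choices, variance settings, array weights, the compared groups alone, a replicate term, and leaving out arrays. Same-numbered replicates did not deviate together over all groups, with a correlation over 0.1 in 11 of 28 group pairs (range -0.68 to 0.59). Between KO groups every correlation was positive, from 0.04 (untreated and 2 weeks) to 0.59 (6 days and 2 weeks). Cyp4a12a and Cyp4a12b read higher in replicate 1 than in replicate 2 in every KO group, but not in every WT group. What links these replicates was not tested.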

Additional observations from a re-analysis of the deposited data

Results flagged for a closer look

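The response to serum at 18 hours differed in direction between the genotypes for Cyp4a12a and Cyp4a12b, with the arrays as labelled. For Cyp4a12a the difference of responses, KO minus WT, was -8.04 ± 3.41, made of -4.55 in KO and 3.48 in WT. For Cyp4a12b it was -6.97 ± 2.97, made of -3.90 in KO and 3.07 in WT. Neither difference passed (limma adjusted p = 1 each). Without both 18-hour replicate 2 arrays the difference was -1.91 ± 2.96 for Cyp4a12a and -1.73 ± 2.62 for Cyp4a12b. Whether those labels are exchanged was not tested.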

How the results depend on the processing

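With 16 arrays 0 members passed for the genotype average, 4 passed with 14 arrays, 4 with 13 and 3 with 12, and leaving out each array gave 0 to 3. In untreated mice 0 members passed, 1 in a fit of only the compared groups (Cyp4a14, with 0.411% of all genes called) and 3 with 13 arrays (0.63%). At 6 days the KO minus WT count was 0, and 2 in the compared groups alone (0.375% of all genes) and 4 with 13 arrays (0.737%). At 2 weeks it was 0, and 0 to 1 leaving out each array. For WT at 2 weeks against untreated 1 member passed, and 0 with quantile normalization (Cyp4a32 at -1.09, limma adjusted p = 0.164), 0 with array weights, 0 in the compared groups alone, 2 with median centring and 0 to 1 leaving out each array. The share of all genes called lower there was 3.23% with 16 arrays, 1.96% with quantile normalization, 0.196% with array weights, 1.09% in the compared groups alone and 9.05% with median centring. For KO at 6 days against untreated 0 members passed, and 1 with array weights (2.21% of all genes).

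Sign changes with at least 1 value past its standard error were few, and none of the values concerned passed a test. The 18-hour KO minus WT difference became 4.67 for Cyp4a12a and 4.11 for Cyp4a12b with 14 or 13 arrays, and leaving out each array gave -4.79 to 1.88 and -4.05 to 1.80. Leaving out each array gave -3.06 to 2.71 for Cyp4a14 in that contrast and -0.69 to 0.69 for Cyp4a31 in KO minus WT at 2 weeks. The WT 18 hours minus untreated difference of Cyp4a14 was 1.53 with 13 arrays, and that of Cyp4a32 was -0.12 to 0.96 leaving out each array. The KO 2 weeks minus untreated difference of Cyp4a14 was -2.93 to 2.97 leaving out each array, and the 18-hour difference of responses of Cyp4a32 was -0.85 with 14 or 13 arrays. By construction 14 arrays leave 1 array per genotype at 18 hours; no other cause was tested. The replicate block changed no member count (Cyp4a32 in WT at 2 weeks, limma adjusted p = 0.0417). The average compares all 8 groups, so no separate fit of the compared groups was run for it, and 12 arrays give no 18-hour contrasts. With 2 mice a group, p-values at a single time rest on the spread pooled over groups, and a lone array is assumed to vary like the rest.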

Other observations

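The probesets annotated to Cyp4a29 with Cyp4a29-ps, and to Cyp4a30b with Cyp4a30b-ps, enter no comparison because each carries more than a single symbol. Over the 16 arrays the probeset of Cyp4a29 read 5.0 to 5.2, and that of Cyp4a30b read 4.90 to 5.53. Both ranges are narrower than those of the 5 tested Cyp4a genes.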
